A study of Mus musculus with 10 samples.

Results

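Cells can build serine from glucose, hand its carbon to folate, and feed methyl groups through methionine. The 10 genes described here encode enzymes of these connected routes. They are Phgdh, Psat1 and Psph of serine synthesis, Shmt1, Shmt2 and Mthfd2 of the folate cycle, and Mat1a, Mat2a, Gnmt and Bhmt of the methionine cycle. The genes were chosen by symbol, with earlier results of these data known, and each matched 1 of the 31053 gene rows in the files. Expression was read on Visium slides, whose barcoded spots take up RNA from a frozen section and report it as unique molecular identifiers (UMIs), 1 per captured molecule. Several cells can lie over each spot, so fewer cells of a type and less RNA per cell cannot be told apart in any value given here.

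As background, Phgdh starts serine synthesis from an intermediate of glycolysis, and Psat1 and Psph complete it. Shmt1 in the cytosol and Shmt2 in the mitochondrion turn serine into glycine and load a carbon unit onto folate. Adult hepatocytes make S-adenosylmethionine, the methyl donor of the cell, with the enzyme encoded by Mat1a, while most other cells and fetal liver use the one encoded by Mat2a.

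There were 10 sections from 7 tissues. Tissue NEJ146 had 4 adjacent sections, and NEJ634, NEJ687, NEJ723, NEJ638, NEJ654 and NEJ677 had 1 section each. The study's model, ABC-Myc, joins a Cre recombinase under the albumin promoter (Alb-Cre) with a human MYC transgene behind the CAG promoter and a floxed STOP cassette (CAG-Myc), on a C57BL/6J background. MYC is therefore switched on in cells that use the albumin promoter, and tumors arise in neonatal mice. The labels call all 10 sections hepatoblastoma, without genotype or age. The study's text names NEJ146, NEJ634, NEJ687 and NEJ723 as tumors and describes 3 healthy livers, which leaves NEJ638, NEJ654 and NEJ677. Because the labels do not carry this split, no group means were formed and no test between tissues was run, and the tissues are described by name.

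Afp, the fetal albumin relative used as a hepatoblastoma marker, was at 1580 to 2441 CPM (UMIs per 1e6 UMIs over tissue spots) in the 4 sections of NEJ146. It was at 4248 CPM in NEJ634, 4083 CPM in NEJ687 and 3280 CPM in NEJ723. It was at 9.63 CPM in NEJ638, 3.79 CPM in NEJ654 and 4.96 CPM in NEJ677, so these 3 tissues went against their hepatoblastoma label. NEJ638 also stood apart from NEJ654 and NEJ677, with a summed level of 24 cell cycle genes of 610 CPM, against 278 and 179 CPM. The mouse Myc row stood at 39.0 CPM in NEJ638, with 3.04 to 5.91 CPM elsewhere. The human transgene was not analyzed here. Xist, an RNA of female cells, was at 0.025 to 0.069 CPM in NEJ687, NEJ723 and NEJ677 and at 29.7 to 63.9 CPM in the other sections. The tissues thus differed in Xist on both sides of the Afp split, and the part of sex in any value was not tested.

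Slides held 61627315 to 117556249 UMIs, and the median tissue spot held 12133.5 to 28926.5. NEJ146 was a batch of its own: its labels name total RNA where the others name polyA RNA, it had no position file, and mitochondrially encoded genes took 6.78 to 7.22% of its UMIs against 2.46 to 3.86% elsewhere. For NEJ146, tissue and batch cannot be told apart. In the other 6 tissues, spots off the tissue outline still held 6.81 to 43.0% of the UMIs, and how much of a spot's RNA came from cells elsewhere on the slide was not tested.

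Levels of 6 of the 10 enzymes separated NEJ146, NEJ634, NEJ687 and NEJ723 from NEJ638, NEJ654 and NEJ677 by at least 2-fold, 4 of them upward (Phgdh, Psat1, Psph and Mthfd2) and 2 downward (Mat1a and Bhmt). Separation means that the lowest tissue on one side lay above the highest on the other, on the log2(CPM + 1) scale. Of the 8021 genes that averaged 10 CPM or more over the tissues, which include all 10 enzymes, 9.71% were separated upward by 2-fold and 4.76% downward. Phgdh, Psat1, Psph and Mthfd2 averaged 10 CPM only through the tissues where they were high, so this filter is not independent of the split. With no filter the shares were 3.45% and 1.63% of 31053 genes. The enzymes were chosen with earlier results of these data known, so their counts are a description and not a test. Mat2a and Gnmt were also separated, by less than 2-fold, and Shmt1 and Shmt2 overlapped. Scaling by trimmed means (TMM) in place of CPM left the enzyme counts at 4 and 2, but of all genes called in either direction, the share called upward went from 67.1% to 47.6%. It moved the median gene by between -0.35 log2 in NEJ634 and 0.32 log2 in NEJ677.

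**Figure D1:**
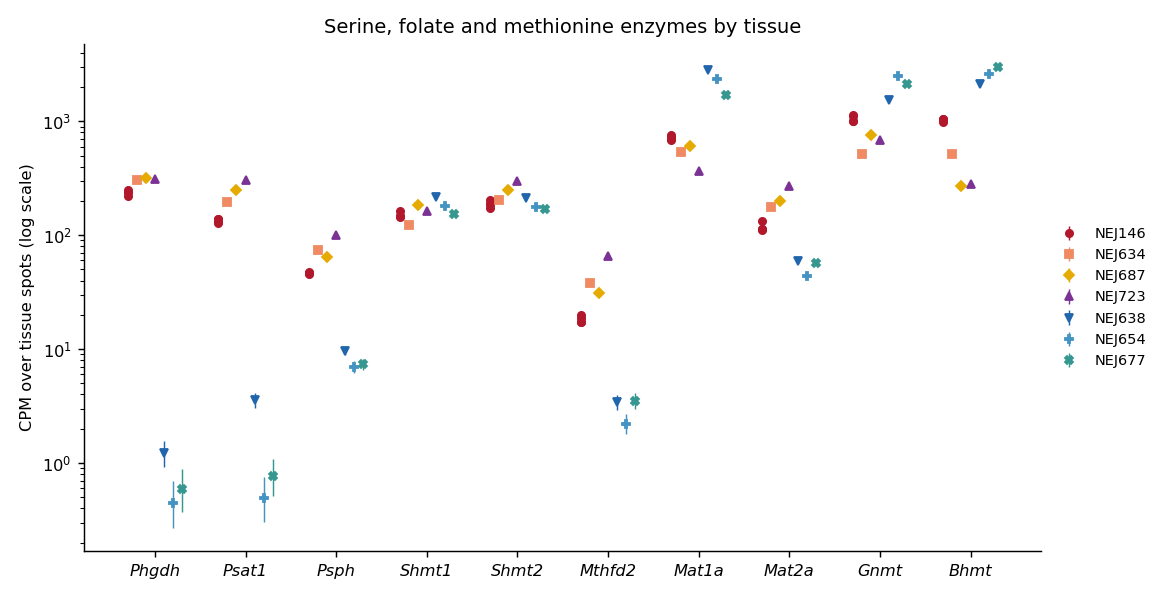
Level of each enzyme in each section, as CPM over tissue spots on a log scale, with exact 95% Poisson intervals of the count (counting error only; most are smaller than the symbols). NEJ146 has 4 points per gene, one for each adjacent section. Phgdh lies at 222 CPM or more in NEJ146, NEJ634, NEJ687 and NEJ723 and at 1.21 CPM or less in the other 3 tissues, while Shmt1 and Shmt2 lie within a narrow band in all 7.

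Of the 10 enzymes, Phgdh and Psat1 showed the widest ranges. Phgdh (3-phosphoglycerate dehydrogenase, ENSMUSG00000053398, chr3:98313170-98339990 in GRCm38) was at 241, 222, 247 and 239 CPM in the 4 sections of NEJ146, a mean of 238 ± 11.0 CPM (SD, n = 4 sections). It was at 305 CPM in NEJ634, 321 CPM in NEJ687 and 310 CPM in NEJ723. It was at 1.21 CPM in NEJ638 (62 UMIs), 0.447 CPM in NEJ654 (19 UMIs) and 0.586 CPM in NEJ677 (23 UMIs).
The groups of tissues did not come near each other: the lowest level on the upper side was 196 times the highest on the lower side. On the log2(CPM + 1) scale this separation of 6.75 ranked 2 among the 8021 genes, and it was 7.50 with a pseudocount of 0.1 and 5.29 with one of 5. By CPM, NEJ634, NEJ687 and NEJ723 did not differ beyond the spread of sections, and NEJ146 lay below them. That spread was taken as 3 times the SD of log2(CPM + 1) over the NEJ146 sections, for the gene or for the median gene, whichever was larger. These sections are adjacent cuts of 1 tissue, so the spread leaves out differences between animals. It also leaves out the choice of scaling, and orders of tissues here and below are by CPM. NEJ146 lay 0.36 log2 below NEJ634, while TMM scaling moved the median gene by -0.35 log2 in NEJ634 and 0.049 log2 in NEJ146. The place of NEJ146 below NEJ634 therefore depends on the scaling. No order is read among NEJ638, NEJ677 and NEJ654, whose values rest on few UMIs and whose spots off the tissue outline held 2.39, 2.65 and 0.934 CPM of Phgdh.

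Psat1, the phosphoserine aminotransferase (ENSMUSG00000024640, chr19:15904678-15947337), was at 135 ± 4.77 CPM (SD, n = 4 sections) in NEJ146, 197 CPM in NEJ634, 251 CPM in NEJ687 and 303 CPM in NEJ723. It was at 3.56 CPM in NEJ638, 0.494 CPM in NEJ654 and 0.764 CPM in NEJ677. The separation was 4.89 log2, and 6.26 log2 without NEJ638. By CPM, Psat1 levels had the order NEJ723, NEJ687, NEJ634, NEJ146 with every step beyond the section spread, whereas Phgdh was nearly level over the first 3 of these. The Psat1 steps were 0.27, 0.35 and 0.55 log2. TMM scaling moved the median gene by -0.29, -0.20, -0.35 and 0.049 log2 in these tissues, in the same order. The size of the steps therefore depends on the scaling.

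Psph, the phosphatase that releases serine (ENSMUSG00000029446, chr5:129765558-129787449), had a higher floor. It was at 46.6 ± 0.467 CPM (SD, n = 4 sections) in NEJ146, 74.7 CPM in NEJ634, 64.4 CPM in NEJ687 and 101 CPM in NEJ723. NEJ638, NEJ654 and NEJ677 still held 9.63, 6.94 and 7.33 CPM, each from at least 288 UMIs. Its separation of 2.16 log2 was the smallest of the serine synthesis genes, and its highest level was 14.5 times its lowest, against 717 times for Phgdh and 613 times for Psat1.

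In the folate cycle, the enzymes parted. Mthfd2, a mitochondrial folate dehydrogenase known from embryonic and transformed cells (ENSMUSG00000005667, chr6:83305691-83325908), was at 18.3 ± 1.34 CPM (SD, n = 4 sections) in NEJ146, 37.7 CPM in NEJ634, 30.9 CPM in NEJ687 and 65.8 CPM in NEJ723. It was at 3.40 CPM in NEJ638, 2.21 CPM in NEJ654 and 3.51 CPM in NEJ677, a separation of 2.10 log2. It was 2.82 log2 without NEJ146 and 1.45 log2 with a pseudocount of 5. NEJ723 was the highest and NEJ146 the lowest of the upper tissues, both beyond the section spread.

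Shmt1, the cytosolic serine hydroxymethyltransferase (ENSMUSG00000020534, chr11:60788104-60811718), was at 150 ± 8.38 CPM (SD, n = 4 sections) in NEJ146, 122 CPM in NEJ634, 182 CPM in NEJ687 and 162 CPM in NEJ723. It was at 217 CPM in NEJ638, 181 CPM in NEJ654 and 153 CPM in NEJ677, so the tissues overlapped. After TMM scaling or DESeq2 size factors they no longer overlapped, with separations of -0.28 and -0.33 log2.
Shmt2, its mitochondrial counterpart (ENSMUSG00000025403, chr10:127517123-127522444), was at 188 ± 11.4 CPM (SD, n = 4 sections) in NEJ146, 204 CPM in NEJ634, 248 CPM in NEJ687 and 297 CPM in NEJ723. It was at 213 CPM in NEJ638, 176 CPM in NEJ654 and 170 CPM in NEJ677. None of the 6 neighbouring pairs in the order of its levels differed beyond the section spread, which held for no other of the 10 genes, and its highest level was 1.75 times its lowest.

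The UMI ratio of Shmt2 to Shmt1, which needs no scaling to depth, did not overlap between the 2 sides of the split. It was 1.25 ± 0.0232 (SD, n = 4 sections) in NEJ146, 1.67 in NEJ634, 1.36 in NEJ687 and 1.83 in NEJ723. It was 0.981 in NEJ638, 0.972 in NEJ654 and 1.11 in NEJ677. The gap between NEJ146 and NEJ677, the nearest pair of tissues across the split, was 0.17 log2, and it was 0.30 log2 without NEJ146. The SD between the NEJ146 sections was 0.027 log2, and the spread between animals is not known.

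In the methionine cycle, Mat1a, Gnmt and Bhmt were lower and Mat2a was higher in NEJ146, NEJ634, NEJ687 and NEJ723 than in the other 3 tissues. Mat1a (ENSMUSG00000037798, chr14:41105035-41124412) was at 720 ± 33.5 CPM (SD, n = 4 sections) in NEJ146, 537 CPM in NEJ634, 602 CPM in NEJ687 and 365 CPM in NEJ723. It was at 2802 CPM in NEJ638, 2335 CPM in NEJ654 and 1705 CPM in NEJ677. The separation was -1.24 log2, and NEJ723 was the lowest tissue beyond the section spread.
Mat2a (ENSMUSG00000053907, chr6:72432799-72439558) ran the other way. It was at 112 to 134 CPM in the sections of NEJ146, 176 CPM in NEJ634, 201 CPM in NEJ687 and 272 CPM in NEJ723. It was at 59.2 CPM in NEJ638, 43.4 CPM in NEJ654 and 57.2 CPM in NEJ677. Its separation of 0.99 log2 lay just under 2-fold. It was 1.55 log2 without NEJ146, 1.07 log2 with mitochondrially encoded and globin genes left out of the totals, 0.76 log2 with TMM scaling and 0.71 log2 with DESeq2 size factors, while Mthfd2, at 2.10 log2, was the nearest member over that limit on the same side.

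The UMI ratio of Mat2a to Mat1a was 0.147, 0.156, 0.163 and 0.195 in the 4 sections of NEJ146, a mean of 0.165 ± 0.0209 (SD, n = 4 sections). It was 0.327 (95% interval 0.320 to 0.335) in NEJ634, 0.333 (0.326 to 0.340) in NEJ687 and 0.746 (0.729 to 0.764) in NEJ723. It was 0.0211 (0.0204 to 0.0219) in NEJ638, 0.0186 (0.0177 to 0.0195) in NEJ654 and 0.0335 (0.0321 to 0.0350) in NEJ677. These are exact binomial intervals and cover counting error only.
NEJ723 held 1 Mat2a UMI for each 1.34 of Mat1a, and NEJ654 held 1 for each 53.8. The tissues did not overlap, with a gap of 2.30 log2, which was 3.29 log2 without NEJ146. The SD between the NEJ146 sections was 0.18 log2. The highest ratio was 40.2 times the lowest, against 1.89 times for Shmt2 to Shmt1.

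**Figure D2:**
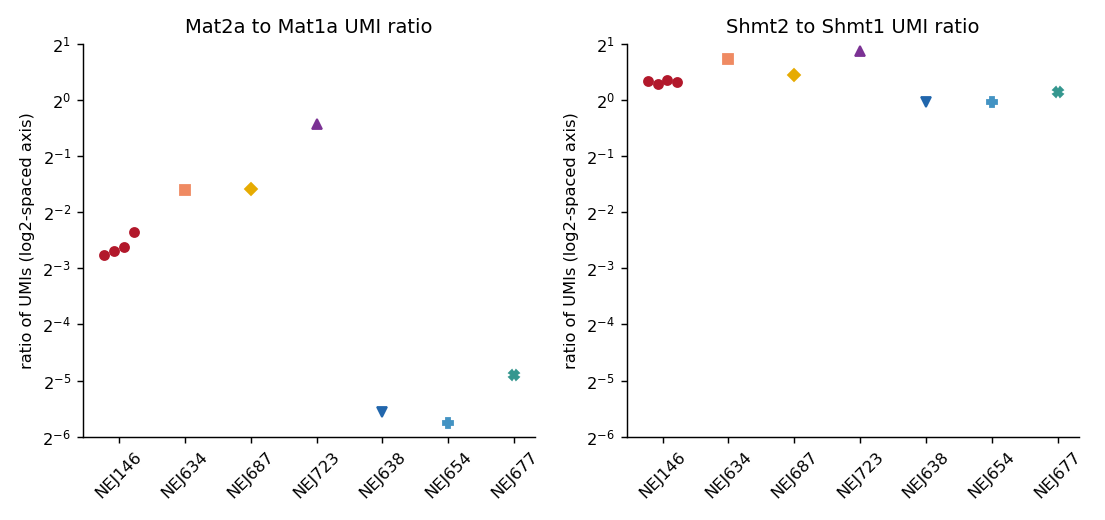
UMI ratios of Mat2a to Mat1a and of Shmt2 to Shmt1 in each section, on the same log2-spaced axis, with exact 95% binomial intervals (counting error only, mostly smaller than the symbols). The Mat2a to Mat1a ratio spans 0.0186 to 0.746 over the tissues, while the Shmt2 to Shmt1 ratio spans 0.972 to 1.83.

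Gnmt, which spends S-adenosylmethionine on glycine (ENSMUSG00000002769, chr17:46725664-46729168), was at 1071 ± 66.3 CPM (SD, n = 4 sections) in NEJ146, 512 CPM in NEJ634, 760 CPM in NEJ687 and 685 CPM in NEJ723. It was at 1551 CPM in NEJ638, 2504 CPM in NEJ654 and 2126 CPM in NEJ677. The separation of -0.53 log2 was short of 2-fold, and it was -1.03 log2 without NEJ146 and -0.99 log2 without NEJ638.
Bhmt, which remethylates homocysteine with betaine (ENSMUSG00000074768, chr13:93616675-93637961), was at 1023 ± 33.7 CPM (SD, n = 4 sections) in NEJ146, 519 CPM in NEJ634, 271 CPM in NEJ687 and 282 CPM in NEJ723. It was at 2131 CPM in NEJ638, 2617 CPM in NEJ654 and 2979 CPM in NEJ677. NEJ146 was the nearest of the lower tissues: the separation was -1.06 log2 with it and -2.04 log2 without it. Bhmt missed 2-fold, at -0.98 log2, when mitochondrially encoded and globin genes were left out of the totals, and at -0.78 log2 in the spots with the lower globin share. Bhmt has a close neighbour in sequence, Bhmt2, so the assignment of some of its reads is uncertain.

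Some marker lists split the tissues as these levels did, and others did not. A summed list of 8 hepatocyte genes ran from 23167 to 32434 CPM in NEJ146, NEJ634, NEJ687 and NEJ723 and from 95745 to 129016 CPM in NEJ638, NEJ654 and NEJ677. The cell cycle list ran from 1673 to 2675 CPM against 179 to 610 CPM, and 4 adult globin genes from 915 to 9419 CPM against 80.0 to 226 CPM. A neutrophil list of 8 genes ran from 348 to 1156 CPM against 9.32 to 23.4 CPM, and an erythroid list of 7 genes from 169 to 766 CPM against 31.6 to 63.5 CPM. Other lists overlapped: stroma at 359 to 1513 CPM against 240 to 604 CPM and macrophage at 282 to 1518 CPM against 246 to 431 CPM. The bile duct list overlapped too, at 61.7 to 440 CPM against 71.7 to 131 CPM. An endothelium list was lower, at 72.0 to 143 CPM against 165 to 196 CPM. The part of these cell types, of sex and of age in the enzyme levels was not tested.

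The 4 genes separated upward by 2-fold are shown here with the 100 bases just before their RefSeq start sites (GRCm38.p6, gene strand, all on the minus strand), since they shared this split of the tissues. Capitals mark CCAAT or its reverse complement ATTGG, the box bound by NF-Y. RefSeq and GENCODE starts differ, so the Psat1, Psph and Mthfd2 windows lie inside the GENCODE gene spans given above and the Phgdh window overlaps the edge of its span.
Phgdh, chr3:98339970-98340069: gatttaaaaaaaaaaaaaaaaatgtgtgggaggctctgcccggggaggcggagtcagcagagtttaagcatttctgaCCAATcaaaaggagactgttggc
Psat1, chr19:15925060-15925159: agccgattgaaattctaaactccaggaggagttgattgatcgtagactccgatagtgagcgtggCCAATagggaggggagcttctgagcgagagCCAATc
Psph, chr5:129787254-129787353: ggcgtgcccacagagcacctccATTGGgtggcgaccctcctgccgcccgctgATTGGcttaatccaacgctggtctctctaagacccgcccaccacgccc
Mthfd2, chr6:83317605-83317704: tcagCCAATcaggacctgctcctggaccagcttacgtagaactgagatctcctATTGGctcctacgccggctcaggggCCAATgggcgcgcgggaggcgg

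Over the 250 bases before the start, searched on both strands, CCAAT was found in 8 of the 10 promoters that RefSeq starts give for 9 members; it was in 33.8% of all 32851 promoters. Those without it were the Shmt2 promoter and a further Psat1 promoter, which is not shown above. The matches included Shmt1, Gnmt and Bhmt, so CCAAT was not limited to the genes separated upward. CACGTG, the E-box letters read by MYC and MAX, and TGATGNAA, the letters read by ATF4, were in none of the 10, and were in 6.02% and 3.45% of all promoters. Mat1a had no entry in the promoter table. A match is a description of these windows and not a binding site.

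Beyond the members, 60 of 69 genes in 7 lists of neighbouring pathways were measured at a mean of 10 CPM or more. Of these, 11 (18.3%) were separated upward by 2-fold, against 9.71% of all genes, 5 (8.33%) downward, against 4.76%, and 44 neither way. With TMM scaling 9 were upward and 7 downward, against 6.53% and 7.19% of all genes. The lists were chosen with earlier results of these data known, so these counts are a description and not a test. Among the genes separated upward, Asns, Slc19a1, Slc1a5, Slc7a5, Sms and Mthfd1l averaged 10 CPM only through NEJ146, NEJ634, NEJ687 and NEJ723. By list, with no test between lists, polyamine synthesis and methionine salvage had 3 of 9 upward and 0 downward. The list of the stress factor Atf4 and its targets had 3 of 8 upward and 0 downward, and Atf4 itself overlapped between the sides. The serine and glycine list had 2 upward and 2 downward of 10, the folate list 2 and 1 of 14, the transsulfuration list 1 and 1 of 7, the methionine list 0 and 1 of 7 and the betaine and sarcosine list 0 and 0 of 5. The upward gap is the lowest of the 4 upper tissues minus the highest of the other 3, and is negative where they overlap or run the other way. Its median was 0.76 log2 in the polyamine list, 0.50 in the Atf4 list and -0.10 in the folate list. It was -0.86 in the serine and glycine list, -1.01 in the betaine list, -1.23 in the transsulfuration list and -1.60 in the methionine list, and -0.57 over all 60 genes, against -0.12 over all genes tested.

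Asns, the asparagine synthetase, was the gene with the largest upward separation in the Atf4 list. It was at 67.4 CPM in NEJ146, 92.8 CPM in NEJ634, 127 CPM in NEJ687 and 150 CPM in NEJ723, while NEJ638, NEJ654 and NEJ677 held 2.38, 1.44 and 2.29 CPM. In the same list Aars, an alanyl-tRNA synthetase, ran the opposite way, with 48.9 to 68.7 CPM in NEJ146, NEJ634, NEJ687 and NEJ723 and 107 to 117 CPM in the others. Slc19a1, the reduced folate carrier, was at 97.5 to 205 CPM against 5.40 to 8.09 CPM, a separation of 3.44 log2. Srm, the spermidine synthase, was at 289 to 432 CPM against 18.03 to 48.7 CPM, and Slc1a5, a neutral amino acid carrier, at 28.0 to 73.1 CPM against 1.96 to 9.05 CPM. Csad, an enzyme of taurine synthesis, was at 230 to 314 CPM against 26.4 to 106 CPM.

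The 5 pathway genes separated downward by 2-fold were Agxt, Aldh1l1, Cdo1, Gamt and Srr. Agxt, which converts glyoxylate to glycine, was at 33.1 to 94.1 CPM in NEJ146, NEJ634, NEJ687 and NEJ723 and at 594 to 859 CPM in the others, a separation of -2.64 log2. Aldh1l1, which burns formyl-folate, was at 78.2 to 227 CPM against 890 to 1288 CPM. Cdo1, the cysteine dioxygenase, was at 35.4 to 240 CPM against 656 to 1167 CPM, and Gamt, a creatine synthesis methyltransferase, at 92.3 to 169 CPM against 360 to 392 CPM. Srr, the serine racemase, which is named after its values were seen, was at 9.19 to 19.9 CPM against 43.7 to 53.0 CPM. Mat2b, which encodes a partner subunit of the Mat2a enzyme, was separated by 0.022 log2, within its spread of 0.13 log2 over the NEJ146 sections. In the betaine list, Dmgdh, which demethylates dimethylglycine, had the largest downward separation, with 151 to 186 CPM against 294 to 304 CPM. In the polyamine list this was Apip, an enzyme of methionine salvage, at 9.83 to 16.4 CPM against 17.98 to 20.9 CPM, a separation of -0.12 log2.

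**Figure D3:**
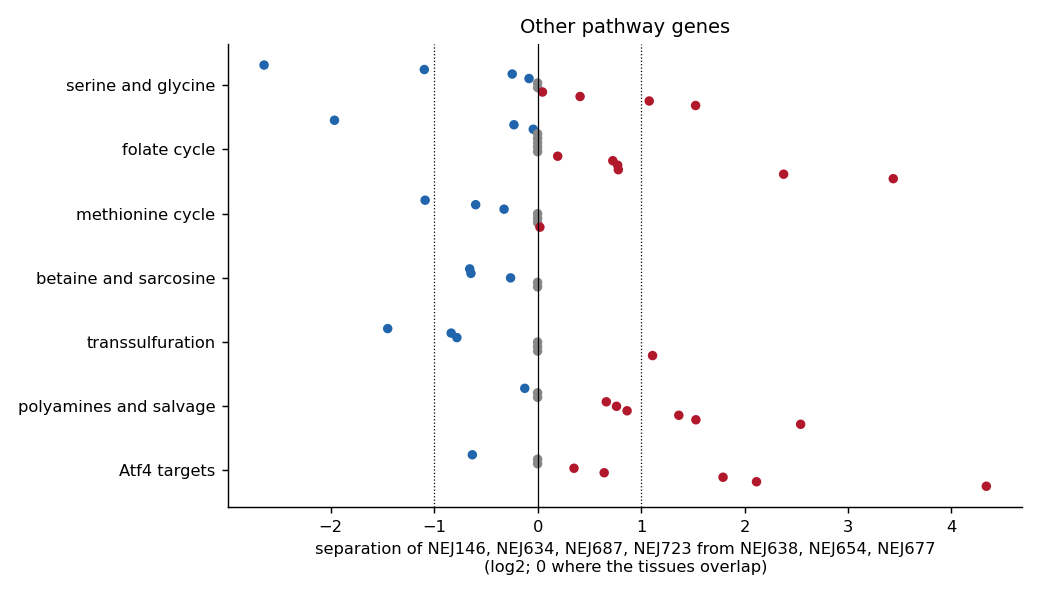
Separation in log2(CPM + 1) of NEJ146, NEJ634, NEJ687 and NEJ723 from NEJ638, NEJ654 and NEJ677 for 60 pathway genes outside the 10 enzymes, one point per gene, by list; 0 (gray) marks genes whose tissues overlap and dotted lines mark 2-fold. Red points to the right were higher in NEJ146, NEJ634, NEJ687 and NEJ723, blue points to the left lower. The farthest points are Asns at 4.34 and Agxt at -2.64.

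The genes whose centered log2(CPM + 1) pattern over the 7 tissues was most like that of a member differed from member to member, by root mean square difference. For Mat1a they were Rnase4 (0.15 log2), 4931406C07Rik (0.16) and Crp (0.17). For Mat2a they were Noc4l (0.10), Ftsj3 (0.11) and Setd7 (0.11). For Phgdh they were Ggt1 (0.36), Bex2 (0.47) and Dusp9 (0.55), and for Shmt2 Cdc42bpb (0.058), Selenos (0.081) and Golga5 (0.086). These likenesses rest on 7 tissues and are a description.

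Within sections, the Mat2a share of the Mat1a and Mat2a UMIs of a spot varied more than counting alone gives in NEJ146, NEJ634, NEJ687 and NEJ723. Among spots with at least 10 UMIs of the pair, the variance over spots was 1.94 to 2.09 times the binomial variance in the NEJ146 sections, 2.64 times in NEJ634, 1.61 times in NEJ687 and 1.45 times in NEJ723. It was 1.08 times in NEJ638, 1.12 times in NEJ654 and 1.06 times in NEJ677. Mat2a made up 1.82 to 3.20% of the pair's UMIs in these tissues, against 12.1 to 41.9% in the other sections. So small a share leaves less room to see extra variance, and the sides of the split are not compared. In NEJ634 the share ran from 10% at the 10th percentile of spots to 50% at the 90th, around a median of 25%. The Shmt2 share of the Shmt pair was close to binomial in every section, with 0.952 to 1.15 times the binomial variance. This rests on 10.6 to 45.7% of the tissue spots of a section, at a median of 11 to 13 UMIs of the pair. The Mat values rest on 47.2 to 96.5% of spots, at a median of 14 to 42 UMIs. Fewer UMIs leave less room to see extra variance, so the 2 pairs are not compared.

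**Figure D4:**
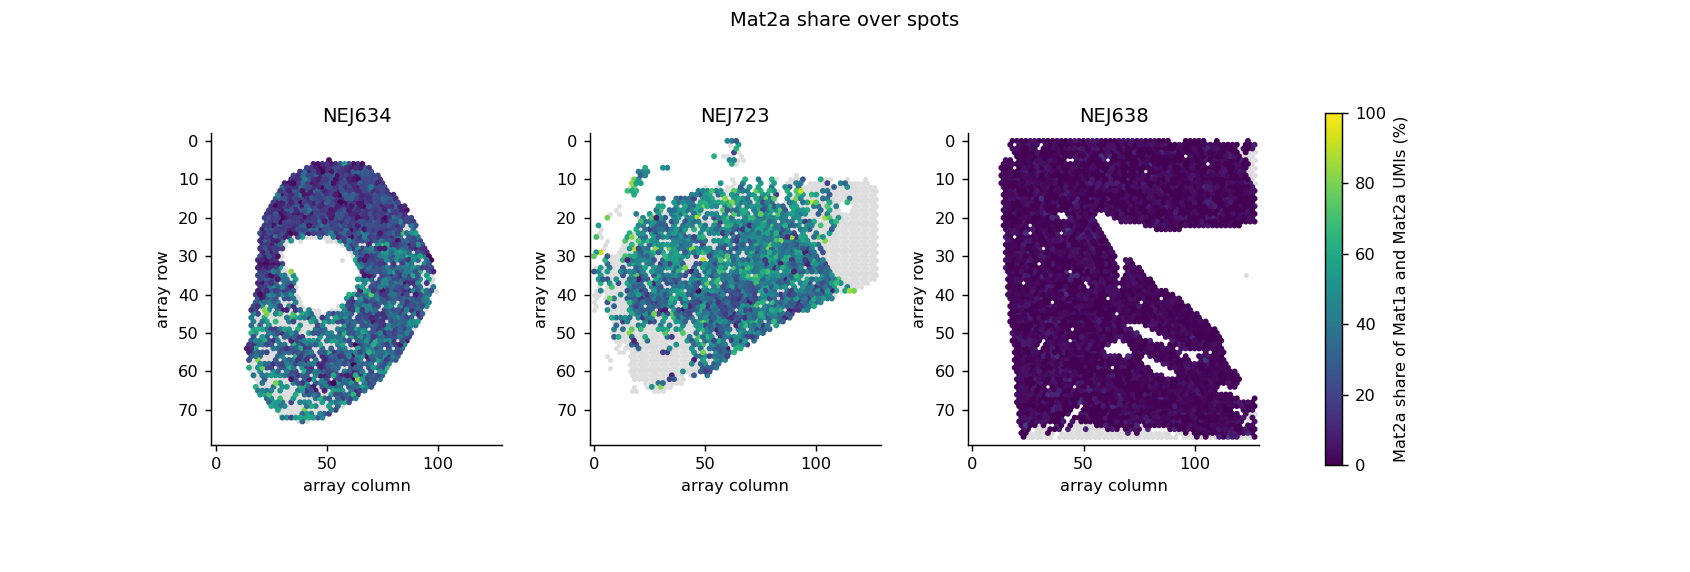
Mat2a share of Mat1a and Mat2a UMIs in each tissue spot of NEJ634, NEJ723 and NEJ638, at the spot's array column and row, for spots with at least 10 UMIs of the pair (gray: tissue spots with fewer). The median spot was at 25% in NEJ634, 41.7% in NEJ723 and 1.64% in NEJ638, and NEJ634 shows an upper region of low share and a lower region of higher share.

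Adjacent spots were more alike in Mat1a, Gnmt and Bhmt in some tissues than in others. Moran's I, a correlation between adjacent spots, was 0.46 for Mat1a, 0.49 for Gnmt and 0.56 for Bhmt in NEJ146 (means of 4 sections), and 0.54, 0.54 and 0.66 in NEJ634. For the same genes it was 0.36, 0.37 and 0.22 in NEJ687 and 0.42, 0.49 and 0.39 in NEJ723. In NEJ638, NEJ654 and NEJ677 it ran from 0.060 for Mat1a in NEJ654 to 0.33 for Mat1a in NEJ638. For Phgdh it was 0.38 in NEJ146, 0.28 in NEJ687 and 0.32 in NEJ723 but 0.10 in NEJ634. In NEJ638, NEJ654 and NEJ677, where Phgdh is rare, its Moran's I was between 0.010 and 0.017. The value falls with sparse counts, so it is not compared between genes.

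Spots were next sorted into 5 bins of equal size by the share of their UMIs that fell to a list of 24 cell cycle genes. The 5 tissues with enough UMIs of that list were used, which leaves out NEJ654 and NEJ677. The median spot held 8 UMIs of that list in NEJ638, against 22 in NEJ687 and 77 in NEJ634. With so few UMIs, counting error has a larger part in how the NEJ638 spots were sorted. In the bin with the largest cell cycle share, Mat1a, Gnmt and Bhmt were lower than in the bin with the smallest in all 5 tissues, as were 3.0% of all genes. Phgdh, Psat1, Psph, Shmt2, Mthfd2 and Mat2a were higher in all 5, as were 31.9% of all genes. Shmt1 was lower in NEJ634 and higher in the other 4. The end bins differed in depth. From the smallest to the largest cell cycle share, the median spot went from 33926.5 to 22416.5 UMIs in NEJ634. In the NEJ146 sections it held 20901 to 26942 UMIs at the first end and 15550 to 20077 at the other. It went from 8652.5 to 11008 in NEJ687, 14090 to 16157 in NEJ723 and 10935.5 to 11722 in NEJ638. The part of depth was not tested. The 95% Poisson intervals of the end bins (counting error only) were apart in all 5 tissues for Gnmt and Bhmt alone. They met in NEJ638 for the other 8 genes, in NEJ723 for Phgdh, Psph and Shmt1, and for Shmt1 also in NEJ634 and NEJ687. In NEJ638 Phgdh, for example, was at 0.905 CPM (0.391 to 1.78) in the lowest bin and 1.61 CPM (0.901 to 2.65) in the highest.

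Bhmt went from 892 CPM in the lowest bin to 229 CPM in the highest in NEJ634, a ratio of 0.257, and from 1622 ± 58.6 to 716 ± 86.9 CPM in NEJ146 (SD, n = 4 sections). It went from 325 to 265 CPM in NEJ687, from 325 to 242 CPM in NEJ723 and from 2255 to 2001 CPM in NEJ638. Mat1a went from 851 to 316 CPM in NEJ634 and from 1131 ± 57.1 to 514 ± 38.0 CPM in NEJ146, but only from 2863 to 2795 CPM in NEJ638. The sorting of NEJ638 spots rests on few cell cycle UMIs, so the size of its changes is not compared with the other tissues. Mat2a spanned a smaller range, from 93.2 ± 8.76 to 137 ± 12.5 CPM in NEJ146 and from 156 to 212 CPM in NEJ634.
In NEJ146, Phgdh went from 127 ± 10.6 to 301 ± 13.4 CPM and Psat1 from 64.6 ± 5.88 to 195 ± 6.25 CPM, while in NEJ723 Phgdh was at 303 and 309 CPM at the 2 ends. The median of all genes was itself 1.05 to 1.15 times as high in the highest bin.

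**Figure D5:**
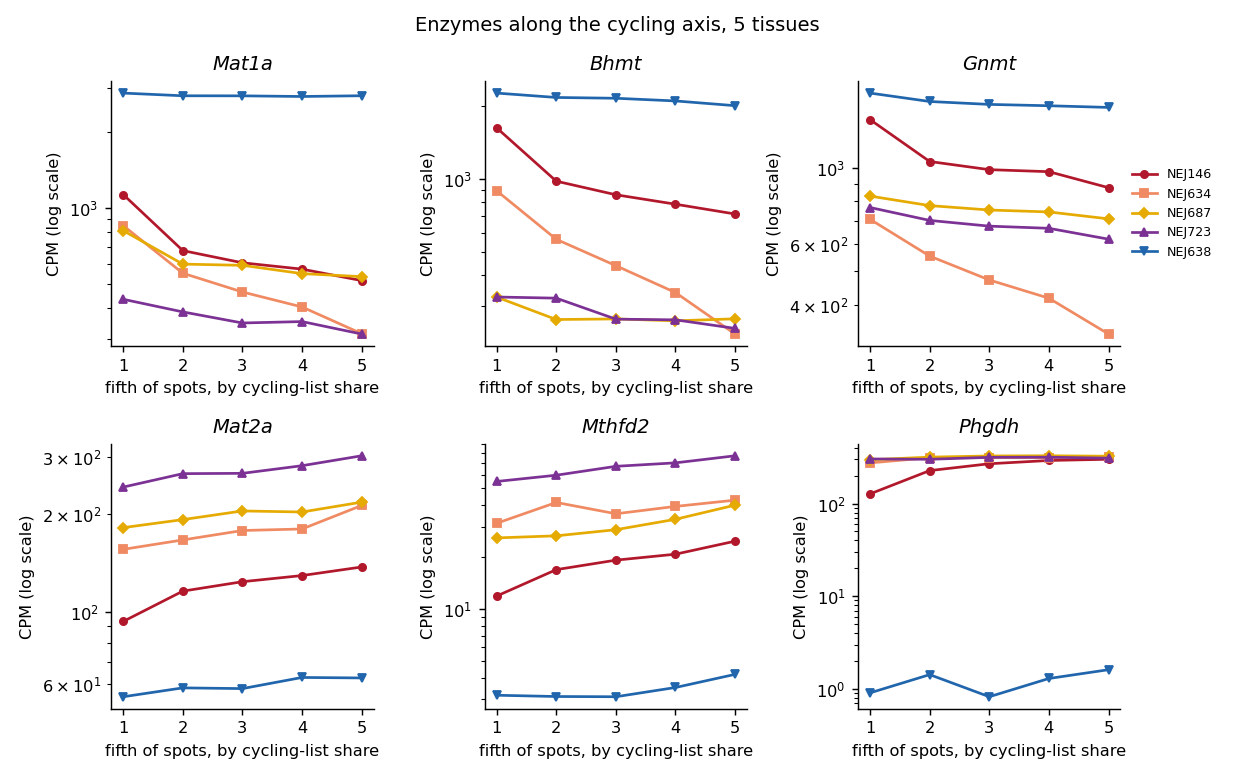
Levels of 6 enzymes over 5 equal bins of tissue spots sorted from the smallest (1) to the largest (5) cell cycle share of UMIs, with levels in CPM on log axes that differ between panels, for the 5 tissues with enough cell cycle UMIs; NEJ146 is the mean of 4 sections. Mat1a, Bhmt and Gnmt end lower than they start and Mat2a and Mthfd2 end higher in each tissue, and Phgdh is steepest in NEJ146.

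The Mat2a to Mat1a ratio was therefore higher in the cell cycle-rich bin in 5 of 5 tissues, by 1.70 log2 in NEJ146, 1.88 in NEJ634, 0.87 in NEJ687, 0.78 in NEJ723 and 0.23 in NEJ638. The mean over tissues was 1.09 log2 (SD 0.68). Flipping signs over the 5 tissues (exact permutation test, two-sided) gave p = 0.0625, the lowest value possible here, and 0.1875 after Benjamini-Hochberg adjustment over 6 ratio tests, so it did not pass 0.05. Without NEJ638 the mean was 1.31 log2, and in the spots with the lower globin share it was 1.21 log2. The Shmt2 to Shmt1 ratio had a mean of 0.076 log2 (exact p = 0.25, adjusted p = 0.3), higher in 4 of 5 tissues.
Other lists moved along the same axis, to unlike extents between tissues. From the lowest to the highest bin the hepatocyte list went from 33407 to 19495 CPM and the hepatoblastoma list of Afp, Igf2, Dlk1, Epcam, Gpc3 and H19 from 5293 to 10066 CPM in NEJ146. In NEJ634 these went from 34226 to 28001 CPM and from 7981 to 6346 CPM, and 5 stromal genes from 1344 to 1963 CPM. The neutrophil list went from 1096 to 311 CPM, the macrophage list from 997 to 405 CPM and the bile duct list from 362 to 746 CPM in NEJ634. The bile duct list went from 253 to 87.8 CPM in NEJ146. The neutrophil list went from 213 to 448 CPM in NEJ146, 1079 to 1473 CPM in NEJ687, 541 to 424 CPM in NEJ723 and 21.4 to 29.6 CPM in NEJ638. The erythroid list went from 586 to 1070 CPM in NEJ687 and from 262 to 467 CPM in NEJ146. In NEJ687 the hepatocyte list went from 30479 to 29310 CPM and the hepatoblastoma list from 13188 to 13090 CPM. In NEJ723 these went from 32019 to 23151 CPM and from 4001 to 3721 CPM, and in NEJ638 from 108656 to 99712 CPM and from 97.2 to 104 CPM. The hepatoblastoma list weighs different genes between tissues. Over all tissue spots, H19 was at 5545 to 6534 CPM in the NEJ146 sections, where the list averaged 8205 CPM. In NEJ723 H19 was at 12.0 CPM and the list at 3893 CPM. The part of these lists in the ratio was not tested.

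Healthy liver lobules are zoned between the portal tract and the central vein, so spots were also sorted by periportal (Cyp2f2, Hal, Hsd17b13, Ass1, Pck1) over pericentral (Glul, Cyp2e1, Cyp1a2, Oat, Slc1a2) UMIs. Ratios between end bins are of CPM + 1. The pericentral list was at 81.4 to 479 CPM in NEJ146, NEJ634, NEJ687 and NEJ723, against 4185 to 6280 CPM in the others. In the former, even the pericentral bin leaned periportal, with a median log2 of periportal over pericentral UMIs (each + 1) of 0.97 to 1.55. In the latter this median was -2.65 to -1.90. Bin names in NEJ146, NEJ634, NEJ687 and NEJ723 therefore mark an order of spots and not lobule zones. Over all 7 tissues, 0 members were higher in the periportal bin in each tissue and 0 lower, against 1.85% and 5.31% of all genes. In NEJ638, NEJ654 and NEJ677, 0 of the 10 enzymes differed by 1.5-fold between the end bins in all 3 tissues in either direction, where 1.62% of all genes were periportal and 1.67% pericentral by that measure. Phgdh, Psat1, Psph and Mthfd2 averaged 10 CPM only through the other tissues, and the Poisson intervals of their end bins met in each of these 3. Phgdh in NEJ654 was at 0.395 CPM (0.108 to 1.01) in the pericentral bin and 0.213 CPM (0.0258 to 0.771) in the periportal bin, too few UMIs to show a 1.5-fold difference. Gnmt was on the periportal side in all 3, at 1.52, 1.20 and 1.36 times, as were 16.3% of all genes. Shmt2, at 0.925, 0.827 and 0.839 times, and Mat2a, at 0.981, 0.968 and 0.780 times, were on the pericentral side, as were 37.1%. The intervals of the end bins met for Mat2a in NEJ638 and NEJ654 and for Shmt2 in NEJ638, and the median of all genes was itself at 0.994, 0.925 and 0.932 times.
Of the 60 other pathway genes, 6 were periportal by 1.5-fold in all 3 tissues and 5 pericentral; they are named here after their values were seen. The periportal ones included the serine dehydratase Sds, 7.11, 6.40 and 7.09 times as high in the periportal bin of NEJ638, NEJ654 and NEJ677. Its relative Sdsl was at 4.81, 3.83 and 3.74 times, the glycine decarboxylase Gldc at 3.49, 2.54 and 3.46 times and the histidine-folate enzyme Ftcd at 2.40, 2.75 and 2.72 times, with Mthfd1l and Nnmt the other two. The pericentral ones were Asns, Aars, Slc7a5, Slc1a4 and Csad, with Slc1a4, a serine and alanine carrier, at 0.325, 0.316 and 0.217 times. Asns, Mthfd1l and Slc7a5 averaged 10 CPM only through the other tissues, and their ratios rest on 3 to 67 UMIs in an end bin. The intervals of their end bins met in NEJ654 and NEJ677 for Asns and Mthfd1l and in NEJ677 for Slc7a5. From the pericentral to the periportal bin of NEJ638, NEJ654 and NEJ677, the bile duct list went from 32.7 to 349, 21.01 to 153 and 21.5 to 175 CPM. The macrophage list went from 190 to 236, 320 to 471 and 212 to 394 CPM, and the hepatocyte list from 93237 to 115753, 105847 to 149561 and 78259 to 107800 CPM. The part of these lists in the ratios was not tested.

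The same order by lobule genes gave other values in NEJ146, where Phgdh was 1.72 times and Psat1 1.96 times as high in the periportal bin, with SDs of 0.067 and 0.14 log2 over 4 sections. From the pericentral to the periportal bin of NEJ146, the globin list went from 4918 to 13357 CPM, the stromal list from 848 to 323 CPM and the hepatocyte list from 27561 to 19958 CPM, and their part was not tested. In NEJ634, NEJ687 and NEJ723, both were between 0.933 and 1.06 times. The pericentral bin was shallow in NEJ687, with a median of 1380 UMIs per spot against 13593 in the periportal bin, and in NEJ723, with 4240 against 21732.
The Shmt2 to Shmt1 ratio was lower in the periportal bin in 7 of 7 tissues, by a mean of -0.13 log2 (SD 0.12). This count joins lobule zones in NEJ638, NEJ654 and NEJ677 with bins that are not lobule zones in the other tissues. The exact sign-flip test, two-sided, gave p = 0.015625, the lowest possible with 7 tissues, and 0.09375 after adjustment, so it did not pass. Sorted by Cyp2f2 over Cyp2e1 alone, the mean was -0.16 log2 with exact p = 0.25. That order used only tissues whose median spot held at least 5 UMIs of these genes. Their number, not given here, sets the lowest possible p, so this p is not compared with that of 7 tissues. In spots of at least 5000 UMIs, sorted by the full lists, the mean was -0.12 log2. The exact p was then 0.03125, no longer the lowest possible (adjusted p = 0.1875). The Mat2a to Mat1a ratio was lower in 5 of 7 tissues, with a mean of -0.14 log2 (exact p = 0.25, adjusted p = 0.3) and 0.51 log2 in the other direction in NEJ146.

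Sorting by the share of adult globin UMIs was possible in NEJ146, NEJ634, NEJ687 and NEJ723. Mthfd2 was higher in the globin-rich bin in all 4, as were 8.14% of all genes, at 1.54, 1.05, 1.43 and 1.09 times, and no member was lower in all 4, as were 3.15% of all genes. The intervals of the end bins for Mthfd2 met in NEJ634 and NEJ723, and the median of all genes was at 1.06 times in NEJ723. The Mat2a to Mat1a ratio differed by 0.72 log2 in NEJ146 and -0.73 log2 in NEJ634, with 0.075 in NEJ687 and 0.28 in NEJ723. Its mean was 0.087 log2 (exact p = 0.75, adjusted p = 0.75) and turned to -0.12 log2 without NEJ146. The Shmt2 to Shmt1 ratio was lower in 4 of 4 tissues, by a mean of -0.093 log2 (exact p = 0.125, the lowest possible with 4 tissues, adjusted p = 0.25). The change in NEJ146 was -0.030 log2 (SD 0.13, n = 4 sections), within its section spread. Without NEJ146 section 1 the exact p was 0.25, no longer the lowest possible. From the lowest to the highest bin, the neutrophil list went from 125 to 840 CPM in NEJ146 and from 408 to 1401 CPM in NEJ634, and the hepatocyte list from 27282 to 18995 CPM and from 37017 to 28928 CPM. The macrophage list went from 403 to 962 CPM in NEJ634. The part of these lists in the ratios was not tested.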

How the data were processed

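Visium sections of 7 mouse tissues were analyzed. The authors deposited unnormalized UMI counts, for every gene in nearly every spot of a slide. The submitters' processing notes name Cell Ranger 6.0 for NEJ146 and Space Ranger 1.3 with mm10 for the others, while the study's methods and the file headers name other versions, and which made the files was not settled; the build for NEJ146 is not given in the sources used here. The counts are of transcript ends and were not divided by gene length, so levels are compared between tissues and not between genes.

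Tissue spots were those flagged in the position files; for NEJ146, which has none, spots with at least 8000 UMIs, which kept 4171 to 4878 of 4992 spots. Slides shared 4989 barcodes, set by the array design. No doublet caller applies to spots. Counts were summed over tissue spots and given as CPM; NEJ146 was the mean of its 4 sections. log2 values use a pseudocount of 1, and genes needed a mean CPM of 10. The section spread limit was 3 times the larger of the gene's SD and the median gene's SD (0.081 log2). An axis was used where the median tissue spot held at least 5 UMIs of its lists. Ratio tests were exact two-sided sign-flip permutations over tissues; labels do not say whether each tissue is 1 animal. edgeR 4.0.16 (TMM) and DESeq2 1.42.0 (size factors) were used only for alternative scalings, with Python 3.11.15 and R 4.3.3. Separation counts and the sign-flip test were checked on simulated counts.

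Gene positions are from GENCODE M21 on GRCm38 and promoters from RefSeq. Pathway lists covered serine and glycine, folate, methionine, betaine and sarcosine, transsulfuration, polyamines with methionine salvage, and Atf4 with its targets. From each pathway list the gene with the largest separation in each direction was named (where any was separated). The members and lists were chosen with earlier results of these data known. Alternatives covered scaling, pseudocount, fold limit, low-level filter, tissue spots, globin share, number of bins, and leaving out sections or tissues.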

Additional observations from a re-analysis of the deposited data

Results flagged for a closer look

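In NEJ146, section 4 held 134 CPM of Mat2a, far above the other 3 sections relative to their spread; chance flags about 1 in 20 such groups, and 12 were looked at. Between the globin-rich and globin-poor ends of the spots, Mat1a differed by -0.64 log2 in NEJ146 (mean of sections) and 0.71 log2 in NEJ634. Bhmt differed by -0.97 log2 in NEJ146 and 1.10 log2 in NEJ634, and the Mat2a to Mat1a ratio by 0.72 log2 in NEJ146 and -0.73 log2 in NEJ634. All 4 NEJ146 sections moved opposite to NEJ634, and the difference was not tested.

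Spots off the tissue outline, which entered no comparison, held Phgdh at levels near those on tissue in NEJ634 (313 CPM), NEJ723 (307 CPM) and NEJ687 (299 CPM). Off tissue it was at 2.39 CPM in NEJ638, 0.934 CPM in NEJ654 and 2.65 CPM in NEJ677, from 46, 30 and 68 UMIs, each above the 3 UMIs that a count of 0 allows. These levels were 1.97, 2.09 and 4.52 times those on tissue.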

How the results depend on the processing

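No paired analysis was possible because the tissues share no more than the replicate number 1, which NEJ146 alone goes beyond; the ratio tests compare bins within each tissue and need no such pairing. With mitochondrially encoded and globin genes left out of the totals, 5 members were higher by 2-fold in place of 4, Mat2a being added. In that setting 1 was lower in place of 2, and 10.8% of all genes were higher and 4.51% lower. In the lower-globin spots 1 was also lower, as were 4.62% of all genes. At a 4-fold limit 4 members were higher and 0 lower, and 5 pathway genes were higher and 1 lower. Of all genes, 1.86% were higher and 1.42% lower at that limit. At 1.5-fold, 18 pathway genes were higher and 11 lower, against 18.3% and 8.28% of all genes. In the lower-globin spots, with NEJ146 included, the Shmt2 to Shmt1 gap was 0.20 log2. Without NEJ146 the Mat2a to Mat1a gap was 3.29 log2 and the Shmt2 to Shmt1 gap 0.30 log2. The Mat2a to Mat1a change along the globin axis then reversed to -0.12 log2. The cause was not tested. Leaving out each NEJ146 section gave 4 to 5 members higher and 2 lower, with 9.54 to 9.86% of all genes higher and 4.75 to 4.85% lower. It gave a Mat2a to Mat1a gap of 2.21 to 2.35 and a Shmt2 to Shmt1 gap of 0.16 to 0.18. Leaving out each NEJ146 section or each other tissue gave mean ratio changes of 0.89 to 1.31 (Mat, cell cycle), 0.022 to 0.36 (Mat, globin), -0.17 to -0.099 (Mat, lobule), 0.044 to 0.085 (Shmt, cell cycle), -0.11 to -0.065 (Shmt, globin) and -0.15 to -0.089 (Shmt, lobule). Without NEJ146 as a whole these were 0.94, -0.12, -0.25, 0.12, -0.11 and -0.11, in the same order. The other counts stayed within 1.5 times and the other gaps within the section SD. The Mat2a to Mat1a change along the globin axis ran down to 0.0089 log2 with spots in 3 bins and up to 0.36 without NEJ634, and that along the lobule axis from -0.25 without NEJ146 to -0.086 with 3 bins. Of 160 for the separations of the 10 members, 0 reversed and 41 moved by over that SD. With 4 to 7 tissues the ratio tests had little or no room to pass 0.05, so they say nothing of stability. Phgdh below 2 CPM rests on 19 to 62 UMIs, so its order among NEJ638, NEJ654 and NEJ677 is set by few counts.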
